A study of Mus musculus with 4 samples.

Results

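Nuclei carrying adipocyte transcripts were examined in single-nucleus RNA sequencing of mouse inguinal fat, a subcutaneous white depot. They were chosen by measured values: at least 300 genes detected, at most 10% of unique molecular identifiers (UMIs) from mitochondrially encoded genes, and a UMI for at least 4 of 9 adipocyte genes. The 9 gate genes are Adipoq, Plin1, Cidec, Acsl1, Ghr, Pde3b, Fam13a, Acaca and Gpam. A nucleus with a UMI for 2 or more of Skap1, Bank1, Mrc1, Ptprb, Themis, Pax5, Csn2 and Ptprc, genes of lymphocytes, macrophages, endothelium and mammary epithelium, was left out. The gate kept 9438 of 50067 filtered nuclei (18.9%).

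The donors were C57BL/6N animals at 6 months of age. Each of the 4 libraries is named for its own mouse: 2 carry the wild type label and 2 the PTRF knockout label. No allele beyond the words PTRF knockout is given, although the series title speaks of a distal enhancer of Ptrf. The bases removed, and the cells concerned, are not stated in the labels. Ptrf is an older name of Cavin1.

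White adipocytes store triglyceride in a single large droplet coated by perilipin and CIDE proteins. Insulin favours uptake and synthesis of lipid, and β-adrenergic receptors favour its release. Their plasma membrane is dense in caveolae, small pits shaped by caveolins and by cavin-1, the coat protein that Cavin1 encodes. Inguinal fat can also hold beige adipocytes, which express the uncoupling protein gene Ucp1.

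Cavin1 (chr11:100956733-100970887, minus strand, GRCm38) went against the labels in the gated nuclei. Levels are given as counts per 1000000 UMIs (CPM), after TMM scaling between libraries where so named. Cavin1 stood at 3.40 and 0.60 TMM-scaled CPM under the wild type label (replicates 1 and 2), and at 94.8 and 74.0 under the knockout label (replicates 1 and 2). Both libraries labelled knockout thus stood above both labelled wild type, and the log2 difference was 5.05 (SE 0.51, edgeR adjusted p = 0.000135). In UMIs, 21 and 1 stood against 341 and 910. Among nuclei with 6 or more gate genes the difference was 4.99 (edgeR adjusted p = 1.62e-05). Every one of the 4 deposited files is also named for the other genotype than its sample. Groups are kept as labelled throughout, so that every "higher" or "lower" below is the direction labelled knockout minus labelled wild type, and the group labelled knockout is the one rich in Cavin1. With 2 libraries a group, each p-value measures the spread between these libraries only.

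The gated nuclei numbered 3030 of 15528 in labelled wild type 1, 824 of 6664 in wild type 2, 2072 of 11988 in knockout 1 and 3512 of 15887 in knockout 2. The shares were 19.5% (exact 95% binomial interval 18.9 to 20.1), 12.4% (11.6 to 13.2), 17.3% (16.6 to 17.97) and 22.1% (21.5 to 22.8), where the intervals cover counting error only. The groups overlapped. The mean share was 15.9 ± 5.05% (SD, n = 2) with the wild type label and 19.7 ± 3.41% with the knockout label, 3.76 points apart (exact two-sided permutation p = 0.667, where 0.333 is the smallest that 2 against 2 allows). Without labelled wild type 2 the difference was 0.18 points, and without labelled wild type 1 it was 7.33. Median depth of the gated nuclei was 1790, 1640.5, 1371 and 2660.5 UMIs in the same order of libraries. Among nuclei with at least 1000 UMIs, 7978, 2985, 4400 and 10147 in number, each thinned to 1000 UMIs before gating, the shares were 30.5, 23.0, 35.3 and 22.4%. On that other denominator labelled knockout 2 was the lowest.

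Labelled knockout 2 stood apart in how the gate worked. Lymphocyte nuclei, defined here by UMIs of both Skap1 and Themis or of both Bank1 and Pax5, should lack the gate genes. Of these nuclei, 3.77% (2.93 to 4.77) had UMIs for 4 or more gate genes in labelled wild type 1, 2.63% (1.41 to 4.46) in wild type 2 and 3.27% (2.18 to 4.69) in knockout 1. In labelled knockout 2 the share was 20.8% (19.4 to 22.2), at a median depth of 1634 UMIs against 768 to 875.5 elsewhere. For 6 or more gate genes it was 1.83, 1.62, 1.63 and 4.39%. The exclusion genes removed 30.3% of the nuclei that met the 4-gene minimum in labelled knockout 2, and 5.86 to 7.20% in the other libraries.

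**Figure D1:**
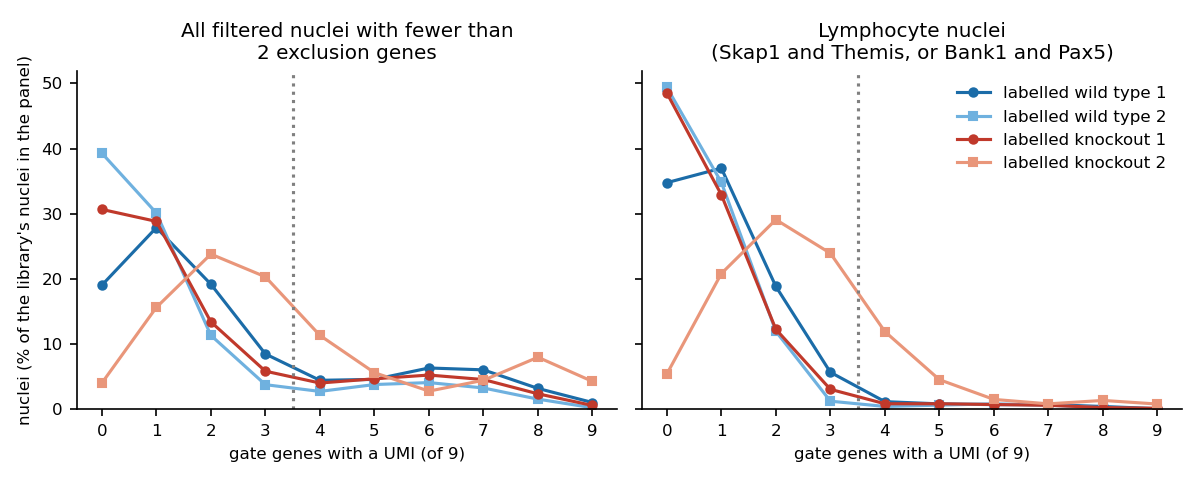
Share of nuclei (%, y axis) by the number of the 9 gate genes with a UMI (x axis) in each library, for filtered nuclei with fewer than 2 exclusion genes (left) and for lymphocyte nuclei (right); the dotted line marks the minimum of 4. In labelled knockout 2 lymphocyte nuclei peak at 2 gate genes (29.1%) and the filtered nuclei dip at 6 (2.76%) before rising to 7.96% at 8.

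The label of adipocyte was checked on 18 adipocyte genes that the gate did not use, among them Pparg, Lipe, Lpl and Cd36. Just inside the threshold, nuclei with 4 gate genes carried these genes at 4056, 5016 and 7153 CPM in labelled wild type 1, wild type 2 and knockout 1. Just outside it, nuclei with 3 carried 1710, 1360 and 2577 CPM. In labelled knockout 2 both sides of the threshold were alike, at 2626 CPM with 4 gate genes and 2346 CPM with 3. There, the 1636 nuclei with 4 or 5 gate genes, 46.6% of those gated, also carried 8 progenitor markers at 2566 and 1657 CPM, against 110 to 408 CPM in the other libraries. With exactly 6 gate genes the adipocyte genes stood at 13762, 11816, 11822 and 7934 CPM. The progenitor markers there were at 1529 CPM in labelled knockout 2 (267 nuclei), against 120 to 170 CPM in the other libraries. A set with 6 or more gate genes thus still holds mixed nuclei in labelled knockout 2. With 7 or more gate genes the adipocyte genes stood at 12852 to 21441 CPM in all 4 libraries. The low-count gated nuclei of labelled knockout 2 therefore do not match the name adipocyte, and the members are called gated nuclei below. Each main result is given again for the 5550 nuclei with 6 or more gate genes, which numbered 1963, 480, 1231 and 1876, or 12.6, 7.20, 10.3 and 11.8% of the filtered nuclei.

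**Figure D2:**
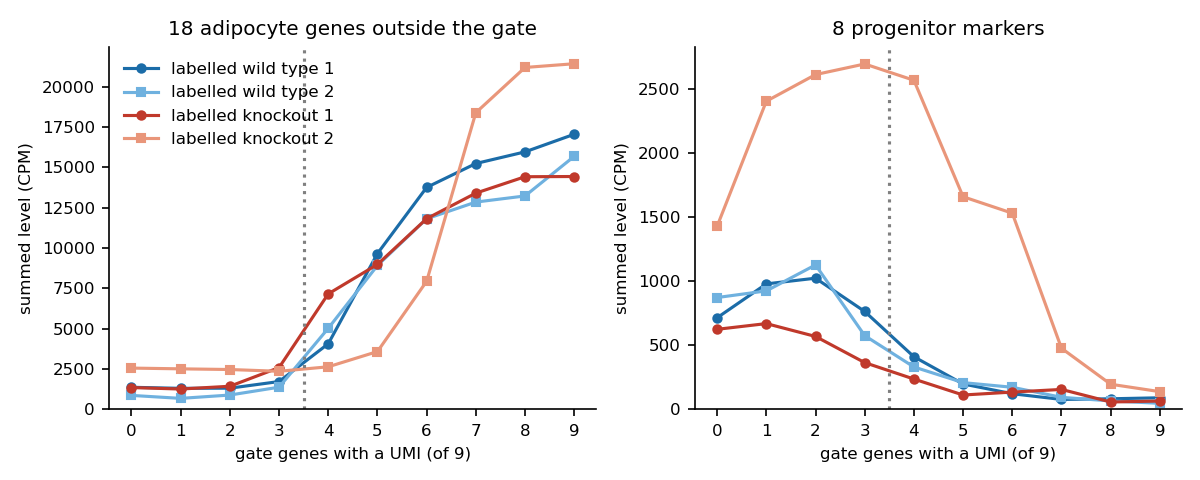
Summed level (CPM, y axes) of 18 adipocyte genes outside the gate (left) and of 8 progenitor markers (right) by the number of gate genes with a UMI, one line per library. In 3 libraries the adipocyte genes climb from 4 gate genes on; in labelled knockout 2 they are at 2626 CPM at 4 and 18401 CPM at 7, while progenitor markers fall from 2566 to 475 CPM.

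Among the gate genes themselves, which chose the members and are described without a test, Ghr, the growth hormone receptor gene, and Fam13a, a gene linked to fat distribution, had the highest levels under the wild type label, and Ghr and Acsl1 under the knockout label. Ghr stood at 10845 and 5240 TMM-scaled CPM in labelled wild type 1 and 2, and at 7306 and 16425 in knockout 1 and 2. Fam13a stood at 11430 and 6035 against 1725 and 3473, with no overlap between the groups, and was above Ghr in both libraries labelled wild type. Pde3b, the phosphodiesterase through which insulin restrains lipolysis, stood at 4452 and 4637 against 1720 and 3268. Acsl1, which activates fatty acids, was between 2190 and 4194 in all 4 libraries, and Cidec, a droplet-coat gene, between 1359 and 2245. Plin1, the main perilipin of the droplet surface, stood at 378 and 382 against 511 and 809, and Adipoq, which encodes adiponectin, at 187 and 134 against 249 and 384. Acaca, which makes malonyl-CoA, ranged from 989 to 1728, and Gpam, the first enzyme of glycerolipid synthesis, from 101 to 186. A nucleus is not expected to show every gate gene at this depth: all 9 had a UMI in 3.96, 1.33, 2.61 and 11.7% of the gated nuclei.

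The 8 exclusion genes, whose levels the rule kept low, summed to 159 to 228 CPM in the 4 libraries. Skap1 ranged from 45.2 to 60.9 and Bank1 from 23.3 to 45.1 TMM-scaled CPM. Csn2, a milk protein gene, varied more, at 69.5, 0, 23.1 and 32.6.

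With nuclei that had UMIs of at least 3 of Pdgfra, Dcn, Col1a2, Col3a1 and Fbn1 (progenitor-gated nuclei, 1524 in all), the gated nuclei were compared gene by gene as a ratio of levels. Leaving out predicted genes, among 1477 genes at 100 CPM or more in the gated nuclei of every library, the largest log2 CPM ratios belonged to the gate gene Acsl1 (6.01), Ctcflos (5.80), the gate genes Cidec (5.79) and Pde3b (5.67), and Tmem45b (5.45). They were followed by Nrg4 (5.44), a secreted neuregulin, Slc7a10 (5.39), an amino acid transporter that marks white adipocytes, Plin1 (5.36), the cytochrome P450 gene Cyp2e1 (5.22), Ankef1 (5.18), the carboxylesterase gene Ces1d (5.13) and Nnat (5.03), the neuronatin gene. Nrg4 stood at 2098, 949, 1219 and 1348 CPM in the gated nuclei and at 21.1, 6.45, 52.1 and 46.1 CPM in the progenitor-gated nuclei. Slc7a10 stood at 396, 249, 282 and 351 CPM against 10.6 and 16.05 in labelled wild type 1 and knockout 2, with no count in the other 2 libraries. Because the 2 gates define these groups, the ratios are a description and carry no test.

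Over nuclei with 6 or more gate genes, each thinned to 1000 UMIs, the variance of the UMI count divided by its mean was highest for Malat1, a nuclear RNA of most cell types, Gm42418 and the mitochondrial rRNA gene mt-Rnr2. It was 8.12, 12.04, 11.2 and 7.57 for Malat1, 8.17, 10.2, 14.7 and 5.74 for Gm42418, and 5.47, 9.62, 6.00 and 7.30 for mt-Rnr2. For the gate gene Ghr it was 5.32, 7.02, 4.79 and 7.42. For Nnat it was 6.25, 6.16, 4.10 and 4.65. The median over the 2732 genes compared was 1.29, 1.31, 1.32 and 1.23. Below them, mixed with further mitochondrial transcripts, Tmem45b (2.84 to 3.53), Fgf14 (2.43 to 2.99), Pparg, the master regulator of adipocyte differentiation (2.05 to 3.15), and Lpl, the lipase that takes up circulating triglyceride (2.15 to 2.55), were also above the median in every library. Apart from Ghr, these genes were singled out after their values were seen.

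Summed per library and compared between the labels, 14 of 18641 genes were called in the gated nuclei (0.0751%) by the edgeR quasi-likelihood test at an adjusted p under 0.05. Of these, 5 were higher (0.0268%) and 9 lower (0.0483%) in the group labelled knockout, the group rich in Cavin1. The libraries of the 2 labels did not overlap for any of the 14, as for 25.8% of all genes tested. In nuclei with 6 or more gate genes 43 of 15757 genes were called (0.273%), 18 higher (0.114%) and 25 lower (0.159%), and 13 of the 14 were among them. The count in gated nuclei was 31 without labelled wild type 1, 49 without wild type 2, 137 without knockout 1 and 72 without knockout 2. Of the 14, 11, 13, 14 and 14 were called in these fits, in which the group reduced to 1 library is assumed to vary like the other. DESeq2 called 61 genes. Without the 5% of gated nuclei with most UMIs in each library, edgeR called 5, namely Cavin1, Gm47283, Glb1l2, Mt1 and Mt2.

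Both metallothionein genes on the list of glucocorticoid targets fell. Mt1 and Mt2 encode small cysteine-rich proteins that bind zinc and copper, and both are induced by metals and by glucocorticoids. Mt2 (chr8:94172664-94173568, plus strand) stood at 78.1 and 69.5 TMM-scaled CPM in labelled wild type 1 and 2, and at 3.34 and 8.29 in knockout 1 and 2. Both libraries labelled wild type were above both labelled knockout, with a log2 difference of -3.58 (SE 0.44, edgeR adjusted p = 0.00155). Mt1 (chr8:94179082-94180327, plus strand) stood at 93.7 and 64.1 against 7.79 and 14.4, a log2 difference of -2.80 (SE 0.41, edgeR adjusted p = 0.00613). Among nuclei with 6 or more gate genes the differences were -3.63 for Mt2 and -2.80 for Mt1, and in all gated nuclei each gene passed without any 1 of the 4 libraries. At 1000 UMIs per nucleus, 5.09 and 5.26% of the gated nuclei had a Mt2 UMI with the wild type label, and 0.184 and 0.568% with the knockout label. In lymphocyte nuclei thinned the same way, the share was highest in labelled wild type 1, at 1.34%. In thinned progenitor-gated nuclei, 321, 206, 144 and 669 in number, the Mt2 share was 4.98, 1.94, 0 and 0.598%. The lower Mt2 share under the knockout label was thus not particular to the gated nuclei, although Mt2 had no test in the progenitor-gated nuclei. For Mt1 the groups overlapped there, with shares of 2.49, 0, 0 and 1.49%. The Mt1 label difference in progenitor-gated nuclei was -0.84 (SE 0.84, edgeR adjusted p = 0.999).

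The 250 bases before the RefSeq start of each gene are shown because the pair moved together and lie side by side, with starts 6471 bases apart. Capitals mark the core of the metal response element, TGCACNC or TGCGCNC, searched on both strands (GRCm38.p6, plus strand, Mt1 at chr8:94178839-94179088 and Mt2 at chr8:94172368-94172617):
Mt1: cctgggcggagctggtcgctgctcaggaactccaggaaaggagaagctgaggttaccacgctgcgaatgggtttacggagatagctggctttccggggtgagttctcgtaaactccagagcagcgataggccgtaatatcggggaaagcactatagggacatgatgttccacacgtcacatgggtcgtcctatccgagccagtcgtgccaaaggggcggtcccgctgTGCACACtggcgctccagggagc
Mt2: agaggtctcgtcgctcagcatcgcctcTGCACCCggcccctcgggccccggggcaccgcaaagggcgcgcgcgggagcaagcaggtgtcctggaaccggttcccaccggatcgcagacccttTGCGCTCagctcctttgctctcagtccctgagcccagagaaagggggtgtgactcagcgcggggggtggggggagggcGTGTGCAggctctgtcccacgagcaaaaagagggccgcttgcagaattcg
The Mt1 window held 1 match, ending 17 bases before the start, and the Mt2 window held 3. Bases past each RefSeq start were not searched, and whether transcription begins at that start was not tested. The counts thus do not rank the promoters of the pair. Of 27025 promoter windows of the same length, 21.3% held at least 1 match and 1.28% at least 3. No match says whether a factor binds, and the binding of any factor was not measured.

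Of the other 7 genes that fell, Rgs2, which shortens G-protein signals, stood at 188 and 71.9 TMM-scaled CPM in labelled wild type 1 and 2 and at 14.7 and 9.51 in knockout 1 and 2 (log2 -3.46, SE 0.46, edgeR adjusted p = 0.00503). The wild type libraries differed from each other, but neither overlapped the knockout libraries. Gnal, an α subunit that stimulates adenylyl cyclase, fell from 174 and 112 to 36.1 and 20.6 (log2 -2.36, SE 0.38, edgeR adjusted p = 0.0177). Il6ra, the interleukin-6 receptor gene, was at 441 and 439 against 74.2 and 137 (log2 -2.05, SE 0.37, edgeR adjusted p = 0.0422). For Il6ra the wild type libraries were nearly equal, and for both genes the groups did not overlap. Fam129b, a gene of cell survival signalling, fell from 152 and 153 to 29.2 and 39.2 (log2 -2.15, SE 0.34, edgeR adjusted p = 0.0147). Slc2a3, a glucose transporter gene, fell from 222 and 255 to 51.2 and 74.9 (log2 -1.91, SE 0.34, edgeR adjusted p = 0.0417). Its call was absent without labelled wild type 2 (-1.81).

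Thbs1, which encodes the matrix protein thrombospondin-1, fell from 101 and 72.5 to 12.5 and 21.9 TMM-scaled CPM (log2 -2.31, SE 0.39, edgeR adjusted p = 0.0244). At 6 or more gate genes it was 82.4 and 71.1 against 3.75 and 9.60, a log2 difference of -3.41 (SE 0.44, edgeR adjusted p = 6.3e-05). Kcnj15, a potassium channel gene, fell from 145 and 109 to 38.1 and 23.8 (log2 -2.05, SE 0.36, edgeR adjusted p = 0.0389). Without labelled wild type 1 neither passed in all gated nuclei, at -2.05 for Thbs1 and -1.83 for Kcnj15, and both passed there with 6 or more gate genes.

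Higher in the group labelled knockout, beside Cavin1, were Glb1l2, Ncam2, Ido1 and a predicted gene. Glb1l2, a galactosidase-like gene, rose from 19.8 and 27.8 to 112 and 202 TMM-scaled CPM (log2 2.75, SE 0.39, edgeR adjusted p = 0.00503) and kept its call without each library. Ncam2, a cell adhesion gene, rose from 28.4 and 53.2 to 138 and 218 (log2 2.16, SE 0.39, edgeR adjusted p = 0.0422). Its call was absent without labelled wild type 1 (1.74). Ido1, which starts the breakdown of tryptophan, stood at 2.27 and 6.65 against 42.3 and 60.6 (log2 3.76, SE 0.52, edgeR adjusted p = 0.00503). In thinned gated nuclei, 0.194 and 0.277% had an Ido1 UMI with the wild type label, against 1.35 and 2.35%. In thinned lymphocyte nuclei it was 0.334 and 0.592% against 1.70 and 1.47%, and in progenitor-gated nuclei 0 and 0 against 1.39 and 1.20%. The higher Ido1 share was thus not particular to the gated nuclei, although Ido1 had no test in the progenitor-gated nuclei. Ido1 was lower with 6 or more gate genes in every library, at 0.64, 4.68, 11.3 and 25.8, and was not called (log2 3.41, edgeR adjusted p = 0.0608). The 8 mammary luminal markers, which include the exclusion gene Csn2, summed to 878, 127, 286 and 634 CPM in the gated nuclei. With 6 or more gate genes they summed to 171, 32.0, 105 and 207 CPM, and their part in Ido1 was not tested.

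Gm47283, named after its values were seen, is a predicted protein-coding gene listed on chrY:90784738-90816464. It stood at 33.6 and 21.8 TMM-scaled CPM against 1618 and 943 (log2 5.50, SE 0.47, edgeR adjusted p = 1.8e-05). In progenitor-gated nuclei its log2 difference was 5.91 (SE 0.48, edgeR adjusted p = 6.63e-05), so it was not particular to the gated nuclei. The gated nuclei held Xist at 1110 to 1464 CPM in all 4 libraries. Of the Y-linked genes counted, Uty had 14, 13, 17 and 50 counts, or 2.07, 7.69, 5.11 and 4.05 CPM. Eif2s3y had 0 counts, and Kdm5d had 1 count, in labelled knockout 2. Whether the Gm47283 UMIs came from the Y chromosome was not tested.

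**Figure D3:**
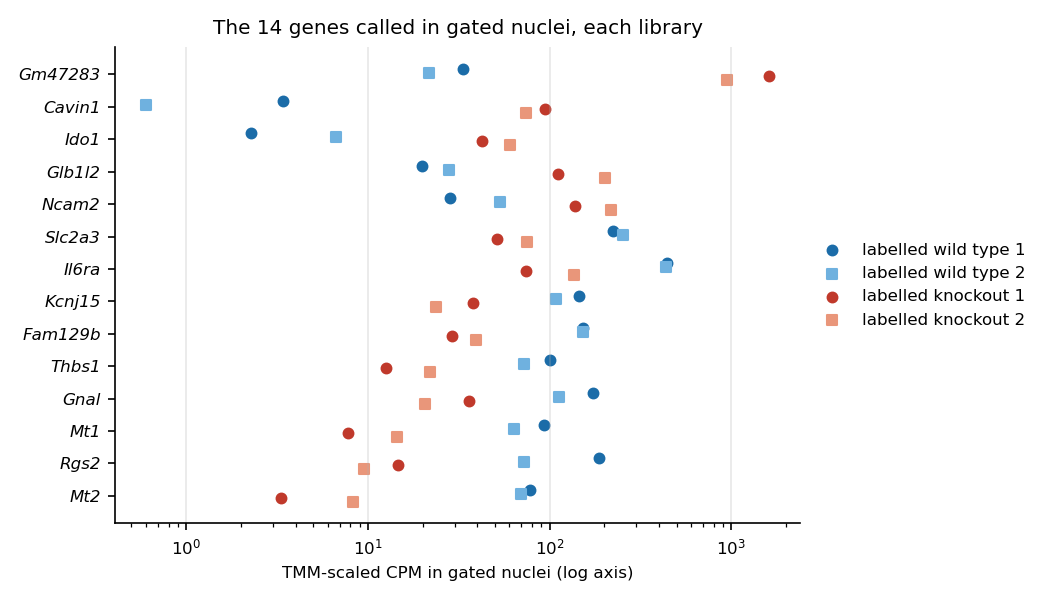
TMM-scaled CPM (log axis) of the 14 genes called in the gated nuclei, ordered by log2 difference; each point is 1 library, blue for the wild type label and red for the knockout label. For all 14 the blue and red points do not overlap, from Gm47283 (33.6 and 21.8 against 1618 and 943) to Mt2 (78.1 and 69.5 against 3.34 and 8.29).

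Adrb3 and Npr3, receptors that bear on lipolysis, were called higher in nuclei with 6 or more gate genes. Adrb3, the main β-adrenergic receptor of mouse white fat, rose from 264 and 186 to 772 and 880 TMM-scaled CPM (log2 1.87, SE 0.39, edgeR adjusted p = 0.0216). Npr3, the receptor that clears natriuretic peptides, rose from 38.2 and 94.6 to 261 and 433 (log2 2.43, SE 0.43, edgeR adjusted p = 0.00573). Neither passed over all gated nuclei, where the log2 differences were 1.75 for Adrb3 and 2.20 for Npr3 (edgeR adjusted p = 0.108 and 0.0645). Without labelled wild type 1, at 6 or more gate genes, neither passed, at 2.16 and 1.89, and Adrb3 also did not pass without labelled wild type 2 (1.61). Adrb3 UMIs were found in 17.3 and 14.4% of the gated nuclei thinned to 1000 UMIs against 46.2 and 35.8%, and in at most 4.23% of thinned lymphocyte nuclei of any library. The difference in that share, 25.1 points, had an exact two-sided permutation p of 0.333, the smallest possible.

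Pdk4 and Enpp2 were called lower in nuclei with 6 or more gate genes. Pdk4, which restrains glucose oxidation, fell from 129 and 140 to 35.4 and 39.9 TMM-scaled CPM (log2 -1.83, SE 0.35, edgeR adjusted p = 0.00771). Its call was absent there without either library labelled wild type (-1.88 and -1.80). Over all gated nuclei Pdk4 did not pass (log2 -1.33, edgeR adjusted p = 0.268). Enpp2, which makes the lipid mediator lysophosphatidic acid, fell from 1371 and 770 to 206 and 274 with 6 or more gate genes (log2 -2.16, SE 0.42, edgeR adjusted p = 0.00885). It did not pass there without labelled wild type 1 (-1.67) or labelled wild type 2 (-2.54).

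Igha, the heavy chain gene of immunoglobulin A, was called higher with 6 or more gate genes, at 1.07 and 0.94 against 27.5 and 103 TMM-scaled CPM (log2 5.95, SE 0.72, edgeR adjusted p = 0.000528). Over all gated nuclei it was not called, at 0.97 and 0.60 against 23.4 and 187 (log2 6.88, edgeR adjusted p = 0.913). Adipocytes are not known to express it. With 6 or more gate genes the 5 plasma cell markers summed to 3.81, 0.91, 38.3 and 125 CPM. Igha is itself among them and gave most of the sum under the knockout label, so the sum is not independent of it. Over all gated nuclei, Jchain had 10, 0, 26 and 595 UMIs, in the same direction as Igha. Mzb1 had 9, 0, 5 and 20 UMIs, at 1.33 CPM in labelled wild type 1 and 1.62 in knockout 2. Derl3 had 3, 2, 0 and 9 UMIs, and Iglv1 had 0, 0, 1 and 1, too few to compare. In nuclei with none of the 9 gate genes the 5 markers, again with Igha, summed to 21.2, 17.3, 186 and 615 CPM. The libraries thus kept their order outside the gate. The part of plasma cell RNA in the Igha value was not tested.

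Gene lists of adipocyte function are described by counts and medians beside those of all genes, of which 51.6% lay above 0 with a median of 0.02. With 6 or more gate genes these were 53.1% and 0.03. Some lists hold gate genes, whose values chose the nuclei, so their counts and medians are not independent of the gate. Levels in the paragraphs on lists are CPM before TMM scaling.

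Lipid storage genes showed no called member over all gated nuclei. Of 20 genes of lipogenesis and triglyceride synthesis, 13 lay above 0 (median 0.26), and again 13 at 6 or more gate genes (median 0.36). Its 2 most abundant members were Acaca and Scd1, the stearoyl-CoA desaturase gene, at 1299, 598, 724 and 579 CPM (log2 -0.70, edgeR adjusted p = 1). Labelled wild type 1 was thus high and the other 3 libraries alike. Of 10 tested genes of lipid uptake, 4 lay above 0 (median -0.01), or 8 at 6 or more gate genes (median 0.13), and Fabp4, a fatty acid carrier gene, was at 2849, 2527, 2528 and 2996 CPM. Among 22 genes of lipolysis and the lipid droplet, 10 lay above 0 (median -0.10). With 6 or more gate genes it was 13 of 21 (median 0.26), with Adrb3 and Npr3 among its calls. That median is the value of the gate gene Cidec.

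Of the 18 adipocyte genes outside the gate, 9 lay above 0 (median 0.09) with none called. At 6 or more gate genes 13 did (median 0.31), with Adrb3 called higher. Pparg stood at 2968, 2565, 1473 and 3147 CPM, low in labelled knockout 1 only. Of 17 adipogenic transcription factor genes 6 lay above 0 (median -0.18), or 9 at 6 or more gate genes (median 0.04), and Ebf1, a factor of adipocyte differentiation, was at 1918, 2453, 1822 and 3473 CPM. Of 16 insulin signalling genes 8 lay above 0 (median -0.08), and again 8 at 6 or more gate genes (median 0.06). Of 10 tested adipokine genes 5 lay above 0 (median 0.20), or 6 at 6 or more gate genes (median 0.41), and Vegfa, the main angiogenic factor gene, was at 910, 372, 607 and 474 CPM.

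The caveola list had 7 of 8 genes above 0 (median 0.34), with only Cavin1 called. Cav1, which encodes the main caveolin, stood at 360, 725, 449 and 972 CPM, with overlapping groups (log2 0.30, edgeR adjusted p = 1). Cavin2, another cavin, stood at 509, 338, 794 and 441 CPM, also overlapping. With 6 or more gate genes the median was 0.54, again with Cavin1 as the only call. Of 14 basement membrane genes 10 lay above 0 (median 0.32; 0.38 at 6 or more gate genes, again 10), with Thbs1, which is also on that list, lower. Of 11 tested YAP targets 5 lay above 0 (median -0.17), with Thbs1 as the only call, and 2 of 10 at 6 or more gate genes (median -0.38).

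Glucocorticoid targets lay mostly below 0, with 1 of 16 above (median -0.88) and Mt1 and Mt2 called lower. With 6 or more gate genes it was again 1 of 16 (median -0.93), with Pdk4 called as well. The most abundant member, Zbtb16, stood at 1562, 2710, 777 and 1415 CPM (log2 -1.07, edgeR adjusted p = 1). Fkbp5, a co-chaperone gene induced by glucocorticoids and named here after its values were seen, stood at 1380, 938, 91.6 and 336 CPM and did not pass (log2 -2.55, edgeR adjusted p = 0.289). In progenitor-gated nuclei it was 1069, 916, 229 and 574 CPM, in the same order of groups. Of 16 tested immediate early genes 3 lay above 0 (median -0.70) and of 11 hypoxia genes 2 did (median -0.25), with no call in either. At 6 or more gate genes it was 3 of 13 (median -0.58) and 2 of 8 (median -0.32). Jun, an AP-1 subunit gene, stood at 40.8, 51.5, 24.3 and 19.5 CPM. Zfp36, which destabilises mRNA, stood at 42.3, 71.0, 30.0 and 44.0 CPM, and Bnip3, a hypoxia-induced gene, at 236, 290, 137 and 119. Of 15 tested clock genes 7 lay above 0 (median -0.15), or 6 at 6 or more gate genes (median -0.04), with Tef, a clock output factor, at 235, 251, 262 and 270 CPM and Nr1d2, a clock repressor gene, at 126, 175, 160 and 137.

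**Figure D4:**
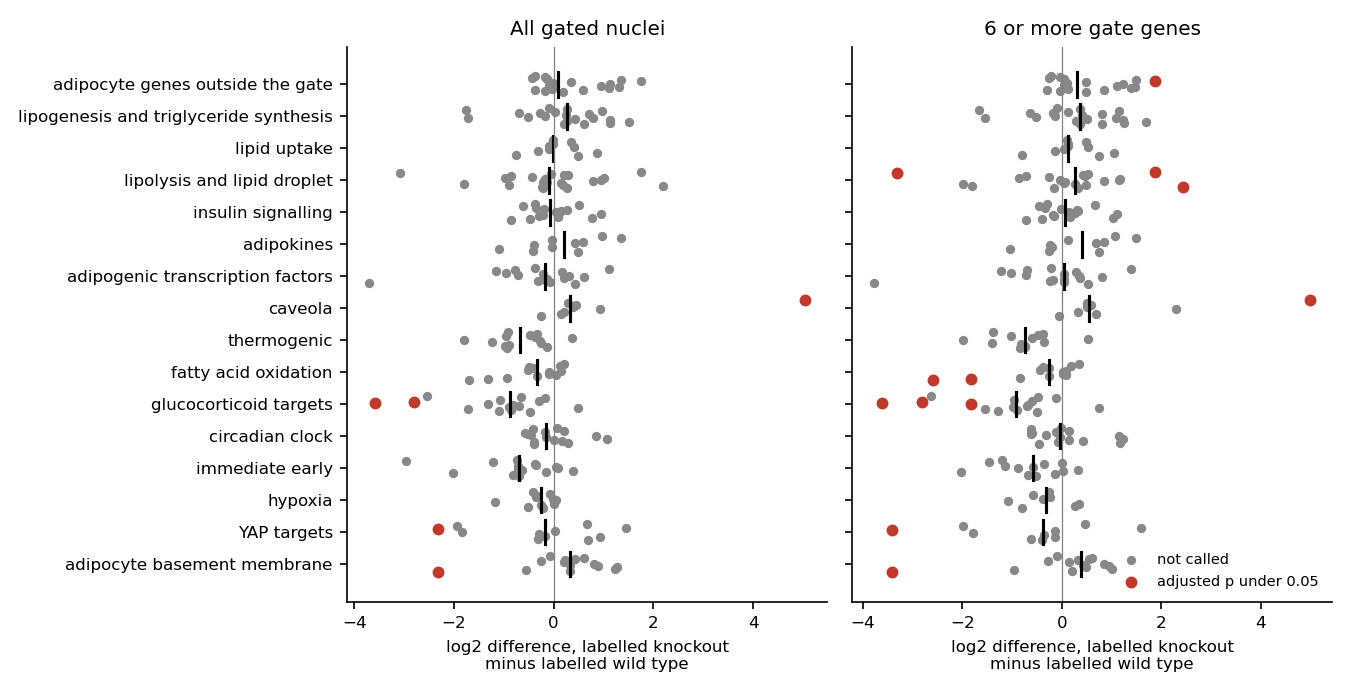
Log2 difference (labelled knockout minus labelled wild type, x axis) of each tested member of 16 gene lists (rows), for all gated nuclei (left) and those with 6 or more gate genes (right); each point is 1 gene, red if its edgeR adjusted p was under 0.05, and the black bar is the list's median. Glucocorticoid targets lie lowest, with medians of -0.88 and -0.93, and most lists lie around 0.

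Of 14 tested thermogenic genes 1 lay above 0 (median -0.68), with none called, and with 6 or more gate genes it was 1 of 13 (median -0.75). Of 13 fatty acid oxidation genes 4 lay above 0 (median -0.33), or 6 at 6 or more gate genes (median -0.25). The fatty acid oxidation and thermogenic lists share Ppara. Ucp1 stood at 0.74 and 45.6 CPM in labelled wild type 1 and 2, and at 26.1 and 0.65 in knockout 1 and 2. Each label thus held 1 library with Ucp1 and 1 almost without, so that the groups overlapped. Cidea, a droplet-coat gene of brown and beige cells, stood at 35.4, 102, 32.2 and 11.4 CPM. Dio2, which activates thyroid hormone, stood at 3.25, 42.6, 26.4 and 12.3, and Cox8b, a respiratory chain subunit gene, at 8.28, 31.9, 16.2 and 2.92. Otop1, a proton channel gene, stood at 2.07, 20.7, 9.01 and 3.00, and Ppara, a regulator of fatty acid oxidation, at 199, 544, 302 and 124. For all 6 genes but Cidea, labelled wild type 2 and knockout 1 held the 2 highest values. Ebf2, a factor of brown adipocyte identity, behaved otherwise, at 642, 556, 318 and 361 CPM (log2 -0.96, edgeR adjusted p = 1). For Ppargc1a, a coactivator gene, the order depended on the measure. Its level was 139, 154, 173 and 85.7 CPM, highest in labelled wild type 2 and knockout 1. The share of thinned gated nuclei with a Ppargc1a UMI was instead highest in labelled wild type 1, at 11.3, 9.82, 9.27 and 5.68%.

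Few gated nuclei carried Ucp1. At 1000 UMIs per nucleus the share was 0.0778% (exact 95% binomial interval 0.00942 to 0.281), 3.04% (1.92 to 4.57), 1.47% (0.946 to 2.18) and 0.0378% (0.000958 to 0.211), that is 2, 22, 24 and 1 nuclei. Without thinning it was 0.0990, 3.52, 1.74 and 0.228%. Among thinned lymphocyte nuclei of the same libraries, 599, 169, 176 and 2646 in number, it was 0, 0.592, 0 and 0.0756%. A count of 0 allows up to 0.501% in labelled wild type 1 and 1.70% in knockout 1. In labelled knockout 2 the gated share was below that of its lymphocyte nuclei, and in labelled wild type 1 and knockout 1 it was not above that limit. In labelled wild type 2, 21 of the 29 nuclei with Ucp1 also had a Cidea UMI (72.4%), against 65 of the other 795 (8.18%). In labelled knockout 1 it was 14 of 36 (38.9%) against 51 of 2036 (2.50%). Ppargc1a, the coactivator of mitochondrial biogenesis, was found in 69.0% of the Ucp1 nuclei against 12.1% of the rest in labelled wild type 2, and in 69.4% against 9.58% in knockout 1. Median depth with and without Ucp1 was 1989 and 1634 UMIs in the first library and 1296.5 and 1372 in the second. For Adipoq it was 5 of 29 against 145 of 795 nuclei in the first and 9 of 36 against 603 of 2036 in the second.

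**Figure D5:**
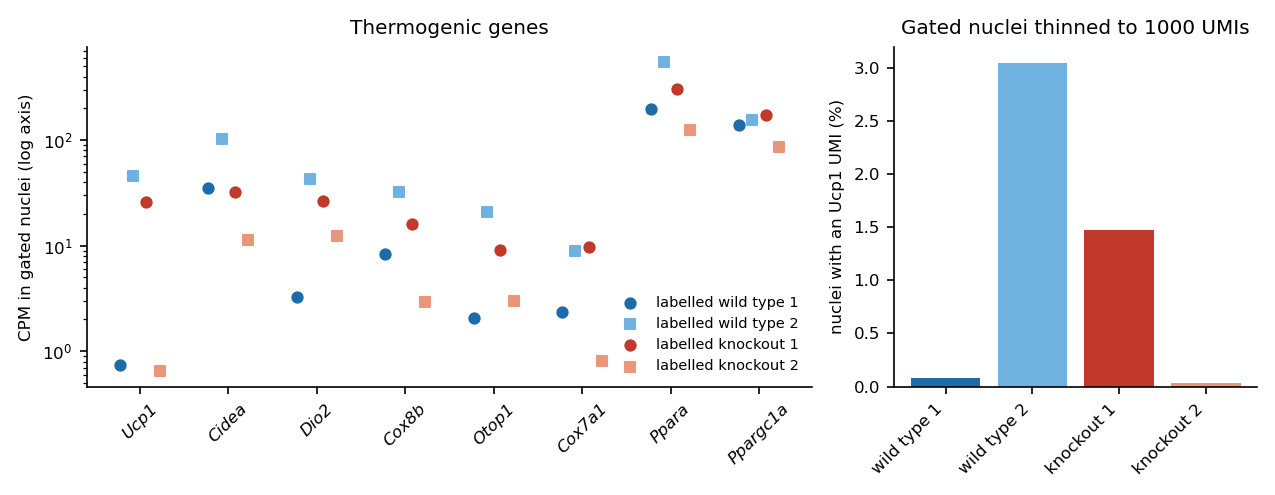
Left, CPM (log axis) of 8 thermogenic genes in the gated nuclei, 1 point per library; right, share of gated nuclei with an Ucp1 UMI after thinning to 1000 UMIs (%), 1 bar per library. Labelled wild type 2 (45.6 CPM, 3.04%) and knockout 1 (26.1 CPM, 1.47%) hold nearly all Ucp1.

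Markers of other cell types were also counted in the gated nuclei. All 8 progenitor markers lay above 0 (median 1.46) with none called, and their sum was 146, 163, 134 and 851 CPM, high in labelled knockout 2 alone. With 6 or more gate genes it was 90.6, 112, 118 and 305 CPM. Endothelial markers summed to 92.4 to 172 CPM, lymphatic markers to 27.7 to 65.5, macrophage markers to 123 to 261, T and NK markers to 71.4 to 119 and B cell markers to 38.9 to 73.4. These sums include exclusion genes, whose levels the rule kept low, namely Ptprb, Mrc1, Skap1, Themis, Bank1 and Pax5. In labelled wild type 1, Skap1 gave 41.3 of the 71.4 CPM of T and NK markers. Bank1 gave 21.3 of the 38.9 CPM of B cell markers there. Myoepithelial and smooth muscle markers summed to 95.8 to 256 and cycling markers to 15.5 to 25.4. None of these lists had a called member, and their part in the differences above was not tested. Leaving out the gated nuclei with 3 or more progenitor genes, of which 303 were in labelled knockout 2 and 5 to 26 in each other library, gave 21 calls that held all 14.

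Whether the label differences were the same outside the gate was tested as a difference of differences between gated and progenitor-gated nuclei. Of 15330 genes 78 were called (0.509%), 52 above 0 and 26 below. Only Ncam2 and Gnal were also among the 14. For Enpp2 the label difference was -2.11 in the gated nuclei and 0.94 in the progenitor-gated nuclei, a difference of differences of -2.96 (SE 0.33, edgeR adjusted p = 9.18e-07). Scaled over the 8 sums, it stood at 1146, 691, 192 and 249 CPM in the gated nuclei and at 304, 209, 402 and 573 in the progenitor-gated nuclei, so the order of the labels was opposite. Cavin1 was higher under the knockout label in the progenitor-gated nuclei too, at 1.58 and 6.82 against 60.9 and 89.4 CPM. Its label difference there was 4.31 (SE 0.65, edgeR adjusted p = 0.0201). For Cavin1 the difference of differences was 0.76 (SE 0.97, edgeR adjusted p = 1), an error too wide to tell the 2 groups of nuclei apart. For Mt1 and Mt2 it was -1.92 and -0.57 (edgeR adjusted p = 0.342 and 1). The count was 4 with a gate of 3 genes, 44 with 6 or more, of which 33 were among the 78, and 51 without labelled knockout 2. It was 118 without labelled wild type 2, 114 without wild type 1 and 93 without knockout 1.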

How the data were processed

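Nuclei were processed with a Singleron GEXSCOPE kit and read on a NovaSeq instrument, per the labels' protocols. Each deposited file is a matrix of unnormalised UMI counts with at least 500 UMIs in every barcode. GRCm38 (mm10) and Seurat 4.3.0 are named, per the submitters' processing notes, and an aligner was not given in the sources used here. They list 51350 barcodes with 8855578 to 35134206 UMIs per library, and 536 of 50812 distinct barcodes occur in more than 1 library. No doublet caller was run, so doublets remain.

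Members and gene lists were chosen with earlier results of these data known. Nuclei were gated as described, and their counts were summed per library, giving 1690304 to 12338998 UMIs. Genes were filtered with filterByExpr, scaled by TMM and tested with edgeR 4.0.16 (quasi-likelihood F test, robust, two-sided, R 4.3.3), adjusted by Benjamini-Hochberg over all genes tested. Standard errors were taken as the absolute log2 difference over root F. The difference of differences used 8 sums with the library as a block. DESeq2 1.42.0, other scaling, filters and gates, and leaving out each library were alternatives, where a lone library is assumed to vary like the other group. The test was tried on simulated data. Shares of nuclei with a UMI used nuclei thinned to 1000 UMIs, which left out 458, 101, 443 and 869 gated nuclei in the order labelled wild type 1 and 2, knockout 1 and 2. Intervals are Clopper-Pearson.

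Named genes are Cavin1, the gate and exclusion genes, up to 12 called genes in each direction without predicted genes, called members of lists, otherwise the 2 most abundant members, the 6 smallest adjusted p-values of the difference of differences, 12 genes by ratio to progenitor-gated nuclei, and thermogenic genes. Marker lists of other cell types are given as sums. Symbols were matched by gene identifier to GENCODE M21 for coordinates, and promoter windows are RefSeq's. Some genes that the rule names are not reported here.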

Additional observations from a re-analysis of the deposited data

Results flagged for a closer look

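Beside Enpp2 (difference of differences -2.96), Sema3c, Ncam2, Sntg1, Nrxn3 and Gnal had a label difference in the gated nuclei that differed from that in progenitor-gated nuclei by the edgeR test of the difference itself. Sema3c, a secreted guidance cue gene, was at 2.24 (edgeR adjusted p = 0.000548) and Ncam2 at 3.01 (edgeR adjusted p = 0.00239). Sema3c stood at 29.2, 31.8, 40.7 and 113 CPM in the gated nuclei and at 947, 1107, 368 and 654 in the progenitor-gated nuclei. Its label difference was called in neither, at 1.31 in the gated and -0.99 in the progenitor-gated nuclei (edgeR adjusted p = 0.818 and 0.378). Sntg1, a syntrophin gene, was at 2.21 (edgeR adjusted p = 0.00256), almost wholly from the progenitor-gated nuclei, where its label difference was -2.001 against 0.10 in the gated. Nrxn3, a synaptic adhesion gene, was at -2.25 (edgeR adjusted p = 0.00306). It stood at 81.8 and 1041 CPM in the gated nuclei of labelled wild type 1 and 2. It did not pass with labelled wild type 2 left out (-1.41) or with 6 or more gate genes (-1.21), and was 0.28, of the opposite sign, against all nuclei outside the gate. Gnal was at -2.49 (edgeR adjusted p = 0.0174) and did not pass with labelled wild type 1 (-2.68) or labelled knockout 2 (-2.36) left out. Sntg1 was not called with a gate of 5 genes (2.25) or 6 (2.31). With a gate of 3 genes none of these 5 was called, while Enpp2 was (-2.82).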

How the results depend on the processing

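Against 14 called genes, DESeq2 called 61, no filter on low counts 39, at least 50 counts 8, gates of 3, 5 and 6 genes 8, 34 and 43, and the gated nuclei without the 5% with most UMIs 5. Leaving out 1 library gave 31 to 137, and 28 to 108 against 43 with 6 or more gate genes. Among the difference of differences, against 78, at least 50 counts gave 142, a gate of 3 genes 4, of 6 genes 44 and no exclusion gene 27, and leaving out 1 library gave 51 to 118. The cause of these shifts was not tested. Other settings stayed within 1.5 times. For the label differences of single genes in the gated nuclei, directions held in 743 of 743 refits. Whether a gene was called stayed the same in 533, while a call was lost in 28 and gained in 182. These genes were chosen for a call in the gated nuclei or with 6 or more gate genes. Their libraries did not overlap between the labels, and the gate of 6 genes is itself 1 of the refits. The tally was thus partly fixed by that choice. Labels give replicate numbers but no pairing: deviations of same-numbered libraries correlated at -0.38 over 7140 genes, and a replicate block gave 26 calls. The crossed pairing, chosen after seeing the data, gave 181. The removal of nuclei with progenitor genes, also chosen then, gave 21.

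With 2 libraries a group and Cavin1 against the labels, no direction can be tied to a genotype. Low gate-gene counts in labelled knockout 2 and a median of 1371 UMIs in labelled knockout 1 limit what single nuclei can show.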
